A study of Caenorhabditis elegans with 4 samples.

Results

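The regions described here are the MSH-5 peaks of chromosome V in Caenorhabditis elegans, mapped by chromatin immunoprecipitation and sequencing (ChIP-seq). They are all 576 peaks that the deposited list of the whole series places on V, of 3271 in that list, with no cutoff on their score. This list is called the combined list. The lists of the 2 ChIP libraries, called replicate 1 and replicate 2, hold 206 and 306 peaks on V and are described beside it.

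All 4 libraries, 2 of ChIP DNA and 2 of input DNA, came from adults of the strain fem-2(b245), labelled as hermaphrodites with a germline and as grown at 20 °C. Every animal carries the b245 allele of fem-2 on chromosome III, ChIP and input alike, and there is no wild-type or MSH-5-deficient library. The labels call the stage young adult, whereas the growth protocol speaks of gravid animals collected from synchronized cultures. The antibody is an affinity-purified rabbit polyclonal against a stretch of MSH-5. Chromatin was taken from whole worms, so nuclei in meiosis were mixed with all other nuclei, in a proportion that the labels do not give.

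In meiosis, homologous chromosomes pair and exchange DNA at crossovers, which hold them together until the first division. MSH-5 and its partner HIM-14/MSH-4 belong to the MutS family. They do not act in mismatch repair, but bind recombination intermediates, and in this worm crossovers depend on them. Each pair of homologues usually makes a single crossover, and crossovers fall more often on the gene-poorer arms than in the gene-rich centre. Chromosome V is the longest of the chromosomes. It carries large families of chemoreceptor genes and the tandem array of 5S ribosomal RNA and SL1 spliced-leader genes, for which RefSeq (WBcel235) names 15 rrn-4 genes and 12 sls-1 genes on V. The peaks were not set against these or other genes, because the gene table is of another build than the peak lists.

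Every coordinate is 1-based in WormBase WS220, the build in the file headers. Length was taken as the end of the last peak in any list, which is 20924011 on V. The score of a peak is the authors' own, on a scale that is not stated. Combined scores on V ran from 1.44 to 180.17 with a median of 6.04. Those of replicate 1 ran from 50.21 to 3100 and those of replicate 2 from 50.13 to 3100, so scores of the combined and replicate lists are not comparable. A score of exactly 3100 was shared by 5 V peaks of replicate 1 and 3 of replicate 2, which it does not rank. The files hold no read counts, so depth is unknown, and intervals below cover the counting of peaks only.

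Most combined peaks of V were narrow and low in score, while a few were wide or high, though not always both. The widest, of 7953 bp, scored 22.21, at rank 75 on V, whereas the peak at rank 5 was 761 bp wide. The 576 combined peaks covered 286 kb, or 1.37% of V. Their median width was 276 bp, and 50% of them lay between 192 and 513 bp. The peaks of replicate 1 were wider, with a median of 542 bp, and those of replicate 2 had a median of 399 bp. Although replicate 2 had more V peaks, both replicate lists covered 194 kb.

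Of the 576 combined V peaks, 160 were found in both replicate lists, that is, they overlapped a peak of each by at least 1 bp. This is 27.8% (exact 95% Clopper-Pearson interval 24.2 to 31.6), against 22.9% of all nuclear combined peaks. A further 58, or 10.1%, were found in replicate 1 only, against 10.1% of all nuclear peaks, and 101, or 17.5%, in replicate 2 only, against 19.3%. The largest class was the 257 peaks found in neither list, at 44.6% (40.5 to 48.8), against 47.7% overall. The combined list comes from the same libraries, so these counts describe how it relates to them and are not independent support.

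Support went with width and score, in part by definition, since a wider peak more easily meets an overlap of 1 bp. Peaks found in both were 624 bp wide and had a combined score of 17.55 at the median, and they made up 56.4% of the bases covered on V. Peaks found in neither had medians of 207 bp and 4.40 and made up 21.1% of these bases. The single-replicate classes lay between, with median scores of 6.47 for replicate 1 only and 7.47 for replicate 2 only. The ranges overlapped, since the peaks found in both reached down to 1.44 and those found in neither reached up to 19.93.

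**Figure D1:**
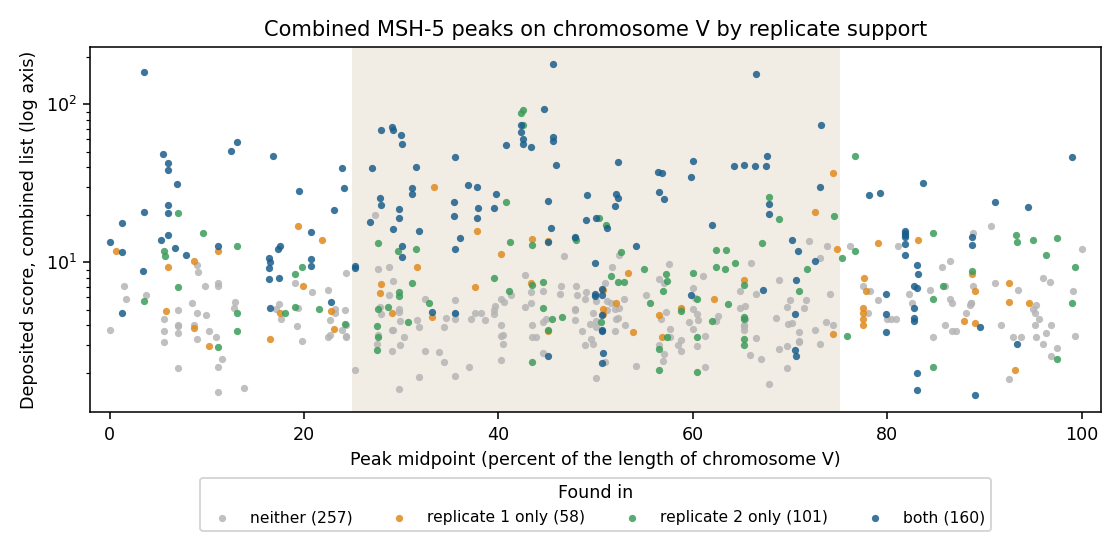
Each point is 1 of the 576 combined peaks on V, placed by its midpoint in percent of the chromosome's length and by its deposited combined score on a log axis, and coloured by the replicate lists it was found in. The shaded part is the central 50% of the length. The peaks found in both lists reach 180.17, whereas those found in neither stay at or below 19.93.

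Split by combined score into 4 equal parts of 144 peaks, the best-scored part had 104 peaks found in both replicates, or 72.2% (64.2 to 79.4), and 6 found in neither. In the next part, with scores of 6.14 to 12.64, 32 peaks were found in both and 55 in neither. The 2 lower parts had 11 and 13 peaks found in both, and 93 and 103 found in neither. On the other chromosomes, split in the same way, the corresponding shares found in both were 64.3%, 13.7%, 4.61% and 4.75%. The order of the shares was thus alike on V and elsewhere in the upper parts of the score range, and each of the 4 shares was higher on V, without a test of these parts. The parts do not cover like scores, as V and the rest were cut separately. The best-scored part began at 12.72 on V and at 10.97 elsewhere, and the next part elsewhere ran from 6.29 to 10.96.

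**Figure D2:**
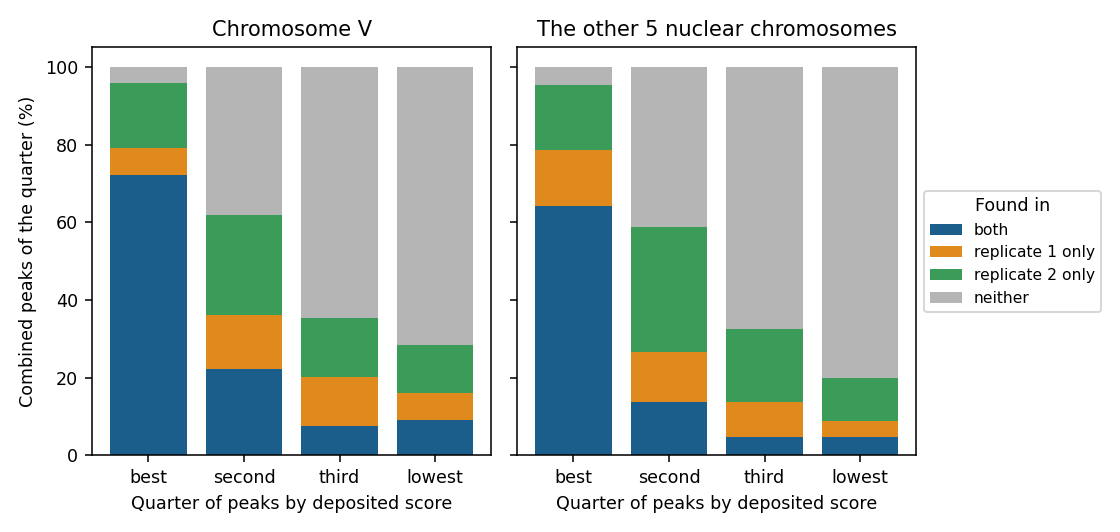
Bars give the percentage of combined peaks found in both replicate lists, in 1 of them or in neither, for 4 equal parts of the peaks ordered by deposited score, on V (left) and on the other 5 nuclear chromosomes together (right). On V the blue share found in both falls from 72.2% in the best-scored part to 7.64% in the third and 9.03% in the lowest.

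Combined scores above 100 were reached by 3 peaks of V, each of them found in replicate 1 and in replicate 2. The best-scored one spanned 9546042 to 9547287 in the central part of V. It scored 180.17, rank 8 of all nuclear combined peaks. Its best overlapping replicate peaks scored 1974.79 in replicate 1 and 2201.07 in replicate 2, above 94.0% and 97.3% of the respective lists. The second, at 723433 to 728387 near the left end, was 4955 bp wide and scored 160.50. The third, at 13907314 to 13909784, scored 155.12. These last 2 reached the tied score of 3100 in each replicate list, so by replicate score neither ranked below the first.

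The widest of the 10 best-scored peaks found in both lists spanned 9338467 to 9344689, or 6223 bp, with a combined score of 93.85 and a score of 3100 in each replicate. It lay 201 kb to the left of the best-scored site.

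Several of the other top sites ranked unequally in the replicate lists. At 15320658 to 15322631, with a combined score of 74.51, the overlapping peak had the tied 3100 in replicate 1 and 532.54 in replicate 2, above 96.1% and 88.3% of the lists. The site at 5838643 to 5842186, with a combined score of 68.48, was alike, at 3100 and 488.17. At 6071350 to 6072896 the combined score was 71.92 and the replicates scored 2198.04 and 393.59, and at 6088706 to 6089381 it was 68.84 with 1807.88 and 352.49. These 4 sites stood higher in the replicate 1 list than in the replicate 2 list.

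The opposite held at 2 further sites of the best 10. The peak at 8853219 to 8853685, with a combined score of 74.15, scored 60.53 in replicate 1, above 10.3% of that list, and 1252 in replicate 2, above 95.3%. The peak at 8847523 to 8848040, with a combined score of 66.66, scored 110.58 and 915.99, above 36.9% and 93.7%. Presence in both lists therefore did not mean a like rank in both. Of the 10 sites, 9 lay in the central part of V and 1, at 723433 to 728387, on the left arm. The central part held 60.2% of all combined V peaks, with a median score of 5.90 against 6.29 on the arms. Some of the 9 are neighbours, such as those at 8847523 and 8853219, and their position was not tested.

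Near these 2 sites lay the best-scored V peaks found in replicate 2 only, in a regular stretch. The 3 peaks at 8892153 to 8892913, 8850008 to 8850552 and 8895313 to 8895796 had combined scores of 92.24, 88.20 and 73.87, at ranks 5, 6 and 9 on V. Their replicate 2 scores were 1335.57, 1507.18 and 1389.41. The nearest replicate 1 peaks lay 2.07, 1.95 and 1.98 kb away.

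Within 10 kb of these 3 peaks the combined list held 7 peaks in 2 groups, 36.0 kb apart. The bounds of this stretch were chosen after its values were seen. The left group had 3 peaks, whose starts lay 2485 and 3211 bp apart. The right group had 4, whose starts lay 2506, 3160 and 2504 bp apart, so the first 2 distances of the groups differed by 21 and 51 bp. All 7 had a replicate 2 peak, with scores of 827.90 to 1507.18. Replicate 1 had 4 peaks there, scored 50.32 to 110.58. The 3 places without a replicate 1 peak were those with the highest replicate 2 scores. Whether the DNA of the groups is repeated was not tested, as no sequence of this build was used here.

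**Figure D3:**
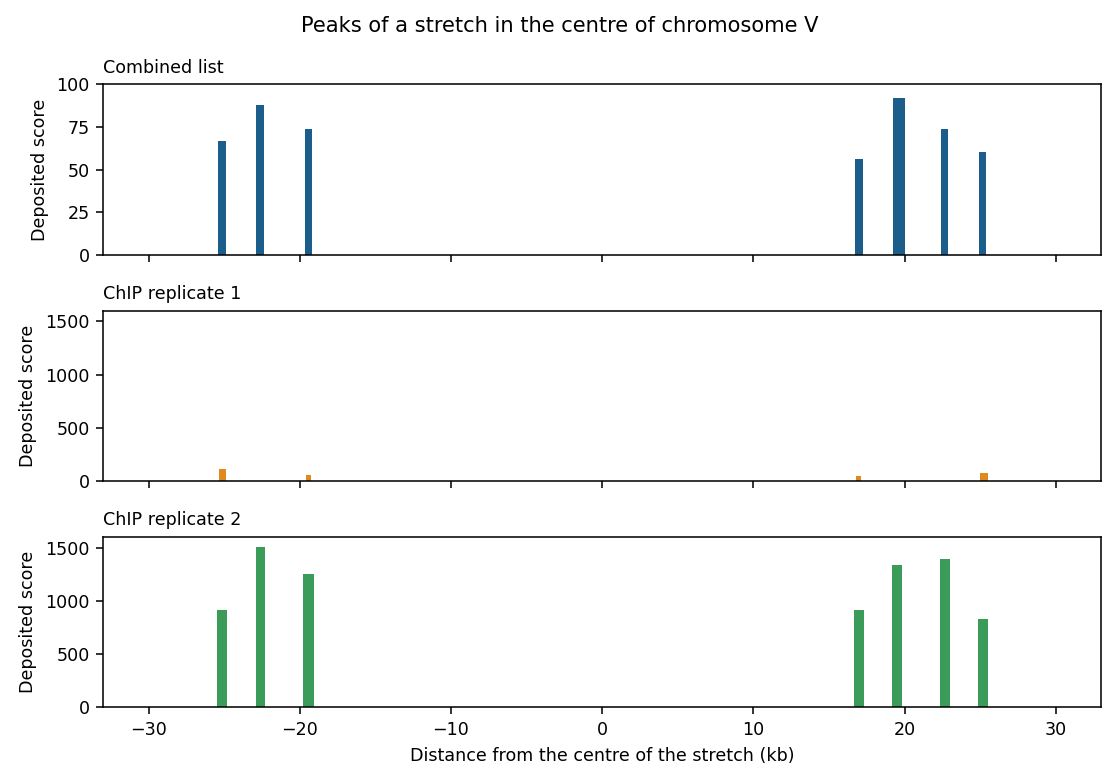
Deposited scores (linear axes, from 0) of the peaks in a stretch of 65.8 kb in the central part of V, drawn at their true width against the distance in kb from its centre, in the combined list and in each ChIP replicate. The 7 peaks score 827.90 to 1507.18 in replicate 2, and the 4 that replicate 1 has score 50.32 to 110.58. The scores of the lists are not known to share a scale.

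Of the combined V peaks found in replicate 1 only, the best-scored spanned 15567305 to 15570112 with a combined score of 36.60. Its replicate 1 peak scored 2302.91, above 94.5% of that list, and the nearest replicate 2 peak was 20.0 kb away. The next, at 6984625 to 6984968 and 15189519 to 15189821, had combined scores of 30.15 and 20.69 with replicate 1 scores of 193.55 and 99.00. Only the first of the 3 was thus a high peak of its library. In the replicate 1 list itself the next best V peaks without a replicate 2 peak within 500 bp were at 16273834 to 16274492 and 9096918 to 9097575, with scores of 295.88 and 290.91. The second of these had a replicate 2 peak 934 bp away.

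The best-scored peaks found in neither replicate list were narrow. They lay at 5717303 to 5717526, 18967670 to 18967894 and 18577477 to 18577671, were 224, 225 and 195 bp wide, and had combined scores of 19.93, 17.02 and 15.35. A peak absent from a replicate list may lie just under its caller's threshold.

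Seen from the replicate lists, most high V peaks were common to both libraries. Of the 206 V peaks of replicate 1, 147 overlapped a replicate 2 peak, or 71.4% (64.7 to 77.4), against 65.8% of all replicate 1 peaks. Among the best-scored 52 of them, 51 did, and the exception was the peak of score 2302.91 described above. Among the lowest-scored 52, 18 did. Of the 306 V peaks of replicate 2, 168 overlapped a replicate 1 peak, or 54.9% (49.1 to 60.6), against 51.2% of all nuclear replicate 2 peaks. There 63 of the best-scored 77 and 24 of the lowest-scored 77 were shared. Of these best-scored V peaks, 14 of replicate 2 were thus missing from replicate 1, and 1 of replicate 1 was missing from replicate 2. The 14 include those scored 1507.18, 1389.41 and 1335.57 in the regular stretch above. The replicate 2 list is the longer one, and the best-scored peaks of other chromosomes were not counted in this way.

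The position of peaks common to both libraries was compared in pairs. There were 110 pairs of V peaks that overlapped by at least 0.5 of both widths, with no peak in more than 1 pair. The median distance between midpoints was 47.8 bp, and the largest was 1110 bp, over pairs whose overlap already limits this distance. The replicate 1 peak was the wider in 78 pairs and the replicate 2 peak in 32. Across these pairs the replicate scores had a Spearman rho of 0.68, a description across sites that come from the same 2 libraries. The combined list overlapped 196 of the 206 V peaks of replicate 1 and 278 of the 306 of replicate 2. The peaks it lacked scored at most 167.46 in replicate 1 and 169.85 in replicate 2.

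The peaks of V lay mostly in the central part of the chromosome. Arms were taken as the terminal 25% of V on the left and on the right, up to 5.23 Mb on the left and from 15.7 Mb on the right, and a peak was placed by its midpoint. The centre held 347 combined peaks, or 33.2 per Mb. The left arm held 117, or 22.4 per Mb, and the right arm 112, or 21.4 per Mb. The arms thus had 229 of 576 peaks, or 39.8% (35.7 to 43.9), against 46.3% of all nuclear combined peaks and 50% of the length. Both arms were alike in density, and median widths differed little, at 282 bp on the left arm, 289 bp in the centre and 251 bp on the right arm.

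Each library gave this picture of V on its own. Replicate 1 had 88 of 206 V peaks on the arms, or 42.7% (35.9 to 49.8), against 54.1% of all its peaks. Replicate 2 had 105 of 306, or 34.3% (29.0 to 39.9), against 43.6% of its nuclear peaks. Both upper bounds lay under 50%, that of replicate 1 only just. The intervals take peaks as independent, and since peaks lie in clusters they are too narrow. In covered bases, too, the arms held 40.1% in replicate 1 and 38.0% in replicate 2.

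The arm share of V was lower than that of the other 5 nuclear chromosomes together. They had 1283 of 2693 combined peaks on the arms, or 47.6% (45.7 to 49.5), so V lay 7.89 percentage points below them (Fisher's exact test, two-sided, p = 0.00065, adjusted p = 0.00389 over 6 properties). The difference was 14.1 points in the replicate 1 list (Fisher's exact adjusted p = 0.00197) and 11.5 points in the replicate 2 list (Fisher's exact adjusted p = 0.00157). X, with 55.4% on its arms, was the chromosome farthest from V, and without X the difference was 6.19 points (Fisher's exact adjusted p = 0.0168). With peaks less than 2 kb apart counted once it was 8.37 points (Fisher's exact adjusted p = 0.0264). Fisher's test takes peaks as independent, but peaks lie in clusters, so these p-values are too small. Among the single chromosomes V had the lowest arm share, followed by I with 43.3%, III with 43.7% and IV with 47.1%. The intervals of these 3 overlapped that of V.

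**Figure D4:**
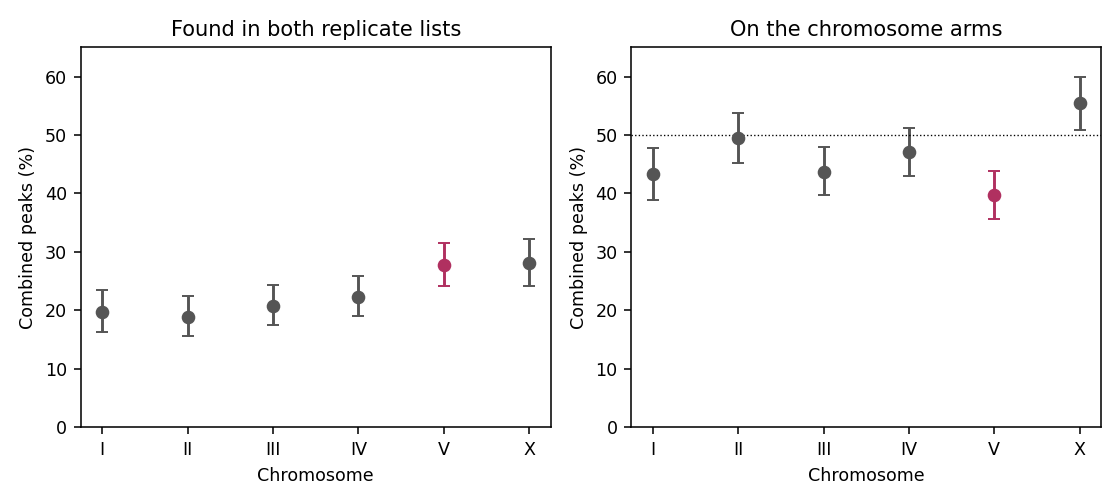
Percentage of combined peaks found in both replicate lists (left) and lying on the arms (right) for each nuclear chromosome, with exact 95% Clopper-Pearson intervals and V in red. The dotted line marks the 50% of the length that the arms make up. V has the lowest arm share, 39.8%, and with 27.8% found in both it stands beside X with 28.1%.

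Combined V peaks were found in both replicates more often than those of the other chromosomes, but this rested on the peaks as deposited. The share of 27.8% on V lay 5.94 points above the 21.8% of the rest (Fisher's exact adjusted p = 0.00786). It lay 4.75 points above when peaks less than 2 kb apart were counted once (Fisher's exact adjusted p = 0.173) and 0.902 points above with an overlap of 0.5 of both peaks (Fisher's exact adjusted p = 0.685), and neither passed. Wide replicate peaks can have several narrow combined peaks under them. Of the 218 combined V peaks with a replicate 1 peak, 64, or 29.4%, had one that also overlapped another combined peak, against 20.8% on the other nuclear chromosomes. For replicate 2 these shares were 17.6% and 17.5%. The part of this in the difference was not tested. V and X had nearly the same share found in both, whereas the other 4 autosomes had 18.8% to 22.3%. With 27.5 combined peaks per Mb V was sparse, as was X with 27.3. Yet the density of V peaks found in both, 7.65 per Mb, lay within the 6.50 to 8.78 per Mb of the other chromosomes.

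The other properties compared did not pass. The share found in neither was 3.77 points lower on V (Fisher's exact adjusted p = 0.129), and the share among the best-scored 25% of the nuclear list, 28.1% on V, was 3.77 points higher (Fisher's exact adjusted p = 0.0953). The share of replicate peaks that were shared was 6.94 points higher on V in replicate 1 (Fisher's exact adjusted p = 0.0953) and 4.56 points in replicate 2 (Fisher's exact adjusted p = 0.162). Against the other autosomes alone, without X, the first 3 of these 4 passed, as given among the alternatives.

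Within V, support by both replicates did not pass a test between centre and arms, nor did the position of peaks found in 1 library alone. In the centre 94 of 347 combined peaks were found in both replicates, or 27.1%, and on the arms 66 of 229, or 28.8% (Fisher's exact test, two-sided, adjusted p = 0.704 over 2 tests). Of the peaks found in replicate 1 only, 30 of 58 lay on the arms, or 51.7% (38.2 to 65.0), and of those in replicate 2 only 33 of 101, or 32.7% (23.7 to 42.7). The difference of 19.1 points did not pass after adjustment (Fisher's exact p = 0.0281, adjusted p = 0.0562). It passed when peaks within 500 bp counted as shared, at 18.3 points (Fisher's exact adjusted p = 0.0483), and when peaks less than 2 kb apart were counted once, at 31.5 points (Fisher's exact adjusted p = 0.0126). It did not pass with a narrower centre, at 15.8 points (Fisher's exact adjusted p = 0.134), or with an overlap of 0.5, at 15.5 points (Fisher's exact adjusted p = 0.149). Nor did it pass with the better-scored 50%, at 13.9 points (Fisher's exact adjusted p = 0.501). These tests compare 2 libraries and not 2 conditions.

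Peak numbers varied along V. In 21 windows of 1 Mb, the last one shorter, the combined list had a median of 28 peaks. The fewest, 13, lay in the first window, from 0 to 1 Mb. The most, 59, lay between 10 and 11 Mb, near the middle of the chromosome, where replicate 1 had 13 peaks and replicate 2 had 29. Of these 59 combined peaks, 10 lay under 1 wide replicate 1 peak, in a cluster at 10605758 to 10611899 described below. A second maximum of 43 lay between 6 and 7 Mb, where both replicate lists were at their highest, with 20 and 29 peaks.

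The share of peaks found in both varied as well. Between 17 and 18 Mb, on the right arm, 16 of 28 peaks were found in both, and between 0 and 1 Mb 7 of 13. The 16 peaks lay at 4 places when joined across gaps under 10 kb, and overlapped 11 peaks of each replicate list. In the last window, from 20 Mb to the right end, it was 1 of 17, and replicate 1 had a single peak there. The windows just right of the chromosome's middle, from 11 to 14 Mb, had 28 to 31 combined peaks each, of which 4 or 5 were found in both. Across the 21 windows the counts of the replicate lists had a Spearman rho of 0.59, a description, since neighbouring windows and the length of V are common to both.

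**Figure D5:**
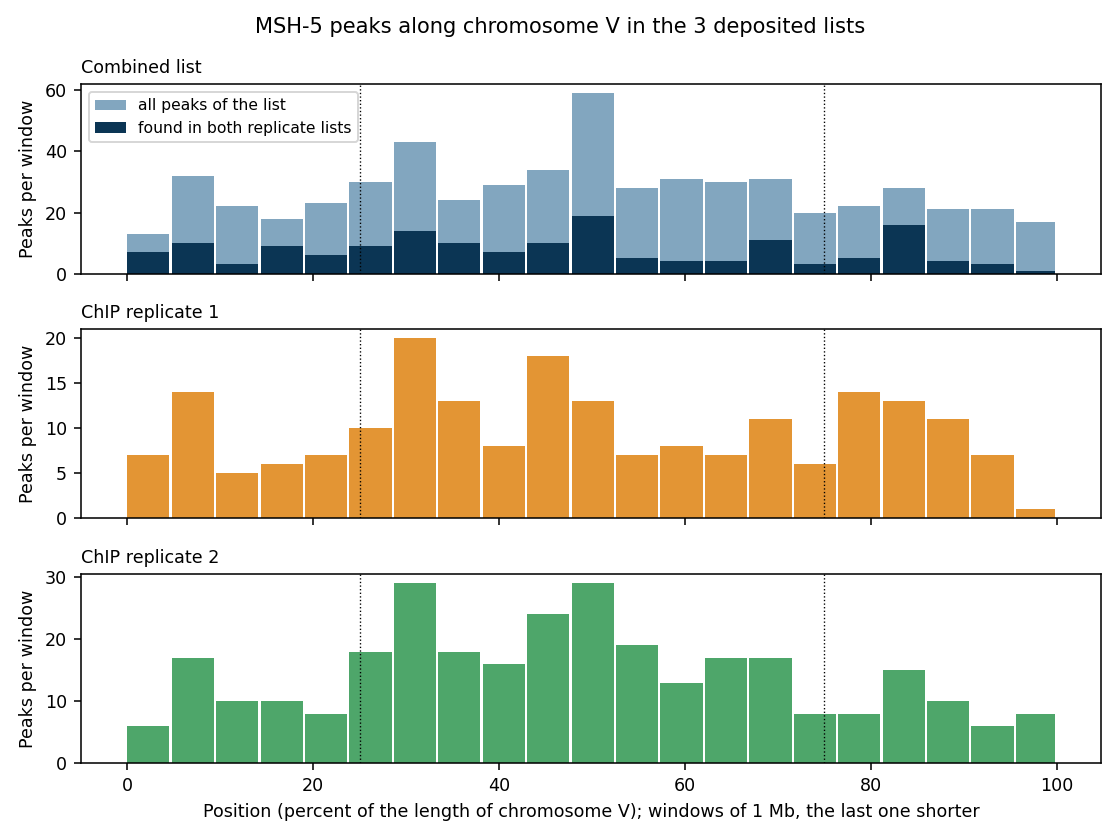
Number of peak midpoints in windows of 1 Mb along V, placed in percent of its length, in the combined list (dark part: found in both replicate lists) and in the lists of ChIP replicates 1 and 2. Dotted lines bound the arms. The combined list peaks at 59 near the middle, and both replicate lists peak at the window between 6 and 7 Mb, with 20 and 29, the latter tied with the window from 10 to 11 Mb.

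Peaks on V came in groups. Of the 575 gaps between neighbouring combined peaks 217, or 37.7%, were under 2 kb, while the median gap was 8.13 kb. Joined across such gaps, the 576 peaks formed 247 single peaks and 112 clusters, and 329 peaks, or 57.1%, lay in a cluster. The other chromosomes were not counted in this way, so the grouping is not shown to be particular to V. On V, 64 combined peaks overlapped 23 replicate 1 peaks that each had several of them. The part of these in the grouping was not tested. Single peaks made up 52.5% of those found in neither replicate and 31.2% of those found in both. The longest stretch without a combined peak ran for 544 kb, from 2890864 to 3434658 on the left arm. Between peaks found in both replicates the longest stretch ran for 1053 kb, from 17519420 to 18572740 on the right arm.

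The largest clusters differed in kind, and 2 of them tied with 10 combined peaks each. The cluster at 10605758 to 10611899 held low peaks only, with combined scores of 2.30 to 6.80. All 10 overlapped 1 replicate 1 peak of 6962 bp with a score of 281.93, and 7 of them also overlapped a replicate 2 peak. It is an example of narrow combined peaks counted singly under a wide replicate peak. The cluster at 13649791 to 13660380 had scores of 3.01 to 41.18 and separate peaks in the replicate lists, 3 in replicate 1 and 5 in replicate 2. Only 1 of its 10 peaks was found in both.

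The 3 widest combined peaks of V were all found in both replicates. The widest one spanned 7916919 to 7924871, or 7953 bp, with a combined score of 22.21. Replicate 1 had a single peak of 8214 bp over it, scored 1706.92, whereas replicate 2 had 4 peaks, the best scored 821.08. The third widest, after the site at 9338467, spanned 17120087 to 17125927 on the right arm. Its combined score was 14.47, above 81.6% of the nuclear combined list. The same place scored 3081.08 in replicate 1 and 2603.74 in replicate 2, above 96.0% and 97.8% of these lists. It belongs to a cluster of 6 combined peaks at 17115535 to 17132093, spanning 16.6 kb, all 6 of which were found in both replicates.

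At the left end of V the first peak of each list began between positions 1 and 4. It spanned 1 to 333 in the combined list, with a score of 13.38. It spanned 1 to 382 in replicate 1 and 4 to 375 in replicate 2, with scores of 377.85 and 845.71, above 72.3% and 93.1% of the lists. The right end was less alike. The last peak of replicate 1 was at 20716405 to 20717136, with a score of 403.85, and it overlapped a replicate 2 peak. The last of replicate 2 was at 20778334 to 20778546, with a score of 58.02 and a combined score of 9.37. The combined list ended with a peak at 20923849 to 20924011, scored 12.17 and found in neither replicate.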

How the data were processed

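ChIP DNA of 2 libraries and input DNA of 2 libraries were sequenced, and the peak lists of the ChIP libraries and of the whole series were used. The submitters' processing notes name BWA and the build ce10. Peaks were called with MACS (replicate lists) and MACS v2 (combined list), per the source columns. The deposited score of each peak has no stated scale, and was ranked only within a list. Where scores of the replicate lists stand side by side, they are not known to share a scale. Not given in the sources used here are caller settings, read depth, the input set against each ChIP library and any pooling of reads. The labels do not say whether the replicates came from separate cultures.

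Overlaps of at least 1 bp, arm shares, clusters and windows were computed with Python 3.11.15, pandas 2.3.3, numpy 2.4.6 and scipy 1.17.1, and the overlap and arm functions were tested on simulated data. Shares have exact 95% Clopper-Pearson intervals. V was compared with the other nuclear chromosomes by Fisher's exact test, with Benjamini-Hochberg adjustment over 6 properties, and arms with centre over 2. Mitochondrial peaks were left out. Named sites are the 10 best-scored peaks found in both lists, the best 3 of each other class, the best 3 of each replicate list with none of the other within 500 bp, the 3 widest, the first and last peaks, the largest cluster, and the windows with most and fewest peaks. The members, definitions and rules were chosen with earlier results of these data known. Genes and sequence at the peaks were not analysed here.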

Additional observations from a re-analysis of the deposited data

How the results depend on the processing

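There were 94 alternatives for 15 results. In 65 of them the sign and the call of the test were kept, or, without a test, the value stayed within the 95% interval of the reported share, 1.5 times the count or 0.1 of the correlation. The lower arm share of V passed under all 10 run on it, between -6.19 and -14.1 points, with -14.1 to -11.5 in the single replicate lists. Leaving out I, II, III or IV from the rest, chosen after seeing the data, ended no call. The higher share found in both on V (5.94 points) did not pass with a reciprocal overlap of 0.5 (0.902), the better-scored 50% (6.12, Fisher's exact adjusted p = 0.0533) or peaks merged within 2 kb (4.75). Without X, V passed for peaks found in neither (-6.36 points), the best-scored 25% (5.13) and replicate 1 peaks shared (8.16). With the better-scored 50% it passed for found in neither (-12.2) and the best-scored 25% (10.1), and the sharing of replicate 2 peaks reversed (-2.35). An overlap of 0.5 reversed the difference in found in neither (0.377). Support in the centre minus the arms of V reversed from -1.73 to 2.57 (better-scored 50%), 0.741 (overlap of 0.5) and 9.19 points (merged), never past the threshold. The arm difference between peaks of 1 replicate only passed within 500 bp (18.3) and merged (31.5). It did not pass with a narrower centre (15.8), an overlap of 0.5 (15.5) or the better-scored 50% (13.9).

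With an overlap of 0.5 the share of V peaks found in both was 12.7%, that in neither 63.0%, and the shared V peaks were 53.4% of replicate 1 and 35.9% of replicate 2. With the better-scored 50% of the combined V peaks alone, found in both was 47.2% and found in neither 21.2%. Within 500 bp, found in neither was 37.8%. Using 1 replicate list alone, 37.8% to 45.3% of combined V peaks were found and 54.7% to 62.2% were not. The arm share of V was 34.3% to 42.7% in the single lists and 59.0% with arms of 66.7% of the length. The rank correlation (Spearman) between window counts of the replicate lists was 0.73 with windows of 500 kb. The cause of these changes was not tested. No paired analysis was possible because only the ChIP libraries enter with peak lists, 1 per replicate number. Without known depth, absence from a list does not show absence of binding.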

Other observations

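Further clusters of at least 5 combined peaks on V, chosen after their values were seen, differed in the lists they were found in. At 1254229 to 1257795 on the left arm, 5 peaks with combined scores of 14.80 to 42.34 were each found in both replicates, and each replicate list had 5 peaks there. At 3434658 to 3441105, right after the longest stretch without peaks, 5 of 6 peaks were found in both. All 6 lay under 1 replicate 1 peak of 6616 bp scored 1204.30, and replicate 2 had 2 peaks there. At 16215448 to 16217912 on the right arm, 4 of 5 peaks were found in replicate 1 only and replicate 2 had none. The best replicate 1 peak there was low, with a score of 71.27, above 18.3% of that list. At 8413633 to 8417100, 4 of 5 were found in neither.

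The lowest-scored combined V peak found in both replicates lay at 18639639 to 18639796 with a combined score of 1.44, while the overlapping replicate peaks scored 65.26 and 207.89. The 2 next lowest, at 17390801 to 17390967 and 17386923 to 17387142, scored 1.55 and 1.99, and both lay in the window from 17 to 18 Mb.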
